A study of Homo sapiens with 6 samples.

Results

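The 10 genes described here are 7 matrix metalloproteinases (MMP1, MMP2, MMP7, MMP9, MMP13, MMP14 and MMP15) and 3 of their tissue inhibitors (TIMP1, TIMP2 and TIMP3). They were taken by Entrez Gene ID, and all 10 were found among the 18795 genes of the table. Messenger RNA was sequenced from 6 libraries, 3 sorted populations from each of HCC70 and MDA-MB-468, which are human cell lines of basal-like breast cancer. HCC70 was grown in RPMI and MDA-MB-468 in Leibovitz L15, both with serum, and the labels name no drug and no engineered allele for either line. All cells were trypsinised, fixed and permeabilised in methanol, and stained for keratin 18, keratin 14 and vimentin before sorting. K18+ denotes cells sorted as positive for keratin 18, K18+K14+ cells positive for keratins 18 and 14, and K18+Vim+ cells positive for keratin 18 and vimentin. Whether the K18+ gate left out cells with keratin 14 or vimentin is not stated in the labels. Each population is 1 library per line (n = 2 per population), so the lines serve as the replicates, and p-values measure how far these libraries disagree and not the spread between cultures. Values are FPKM, a level scaled to transcript length and to the number of fragments sequenced, with a floor of 0.1 FPKM at which a gene is only listed.

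Matrix metalloproteinases are zinc enzymes that cut proteins of the extracellular matrix and of the cell surface. Most are secreted as inactive proenzymes, whereas MMP14 and MMP15 are anchored in the membrane. TIMPs are small secreted proteins that block the active site of these enzymes. In breast tumours many MMPs are made by stromal and immune cells, and MMP7 (matrilysin) is the one best known from the epithelium itself.

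3 promoters are shown because their genes carry the results that follow. MMP7 stood lower in the K18+Vim+ library of both lines, and MMP14 and TIMP3 differed between the lines. RefSeq promoters on GRCh38.p14 were at hand for 5 of the 10 genes. Each sequence is the 250 bases before the annotated start, 5′ to 3′ on the strand of the gene. Capitals mark matches to the letters of an AP-1 site (TGANTCA, both strands), a TATA box (TATAAA, gene strand) or a GC box (GGGCGG, both strands).
MMP7: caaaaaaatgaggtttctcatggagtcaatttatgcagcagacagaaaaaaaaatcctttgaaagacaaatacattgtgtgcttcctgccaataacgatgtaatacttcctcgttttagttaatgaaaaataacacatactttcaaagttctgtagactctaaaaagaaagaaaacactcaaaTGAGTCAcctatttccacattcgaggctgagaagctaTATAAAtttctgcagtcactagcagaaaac
MMP14: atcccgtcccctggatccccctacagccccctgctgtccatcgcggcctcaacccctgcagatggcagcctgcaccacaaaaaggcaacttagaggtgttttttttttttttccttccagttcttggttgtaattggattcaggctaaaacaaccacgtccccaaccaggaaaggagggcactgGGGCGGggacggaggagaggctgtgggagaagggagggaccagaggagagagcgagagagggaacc
TIMP3: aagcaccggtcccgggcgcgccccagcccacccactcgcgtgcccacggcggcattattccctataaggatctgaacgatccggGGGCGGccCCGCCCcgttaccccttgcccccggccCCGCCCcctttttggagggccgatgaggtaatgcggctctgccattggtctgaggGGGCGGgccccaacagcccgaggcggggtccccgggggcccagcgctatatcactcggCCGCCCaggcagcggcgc
The MMP7 window (chr11:102530748-102530997, minus strand) held 1 AP-1 match, 67 to 61 bases before the start, and 1 TATA match, 30 to 25 bases before it. Of 27305 promoters of this length, 6.6% held the AP-1 letters, 7.17% the TATA letters and 42.3% a GC box. The MMP14 window (chr14:22836335-22836584, plus strand) held 1 GC box, 66 to 61 bases before the start. The TIMP3 window (chr22:32801455-32801704, plus strand) held 5 GC boxes and 26 CpG dinucleotides, against 3 CpG in MMP7, 7 in MMP14 and a median of 11 over all promoters. The MMP15 and TIMP1 windows held 5 and 2 GC boxes and neither of the other motifs. A match is a description of the letters and was not tested as a binding site.

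TIMP1 had the highest level of the 10 genes in 5 of 6 libraries, and MMP7 in the other, MDA-MB-468 K18+K14+. FPKM is scaled to transcript length, so levels of different genes can be set side by side, but only roughly. The annotation behind the lengths was not given, and the RNA came from fixed cells. The 3 TIMPs summed to between 75.9 and 101 FPKM in 5 libraries and, in the MDA-MB-468 library labelled K18+Vim+, to 205 FPKM. The 7 MMPs summed to 63.3 FPKM in HCC70 K18+, 74.7 FPKM in HCC70 K18+K14+ and 43.0 FPKM in HCC70 K18+Vim+. In MDA-MB-468 the sums were 61.9 FPKM in K18+, 113 FPKM in K18+K14+ and 12.8 FPKM in K18+Vim+. TIMP1 made up 75.7% to 95.3% of the TIMP sum. MMP7 made up 82.7% and 85.0% of the MMP sum in MDA-MB-468 K18+ and K18+K14+, but 42.6% and 36.9% in the same populations of HCC70, where MMP14 and MMP15 supplied most of the rest. The ratio of summed TIMP to summed MMP level was 1.29 in HCC70 K18+, 1.35 in HCC70 K18+K14+ and 2.17 in HCC70 K18+Vim+. In MDA-MB-468 it was 1.23, 0.863 and 16.0 in the same order. The K18+Vim+ library had the highest ratio in each line. In HCC70 its TIMP sum, 93.3 FPKM, lay between those of K18+ (81.9 FPKM) and K18+K14+ (101 FPKM). MMP7 made up 8.21% of the MMP sum in HCC70 K18+Vim+, and the ratio without MMP7 was not computed. The 16.0 of MDA-MB-468 comes from a single library, whose markers went against its label as described below.

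**Figure D1:**
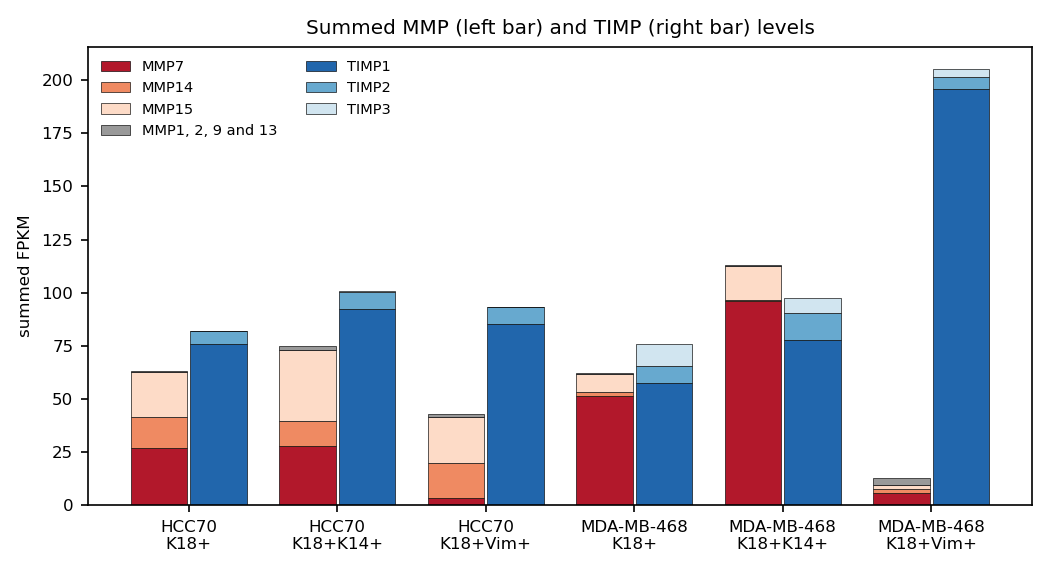
Stacked bars of FPKM summed over the 7 MMPs (left bar of each pair) and the 3 TIMPs (right bar) in each of the 6 libraries, 1 library per bar pair and no error. MMP7 (dark red) is the largest MMP part in MDA-MB-468 K18+ and K18+K14+ and a small one in HCC70 K18+Vim+, while TIMP1 (dark blue) is the largest TIMP part in all 6.

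1 library went against its label, the MDA-MB-468 library labelled K18+Vim+. Where these Results print a member's difference that rests on it and was fitted to all 6 libraries, the value without it is also given. They print no such difference for MMP2, MMP14, TIMP2 and TIMP3 in the K18+Vim+ comparisons. For most other genes named in the population comparisons, each line's values are given, and those of HCC70 do not use it. Counts of genes higher or lower in both lines rest on it in the K18+Vim+ comparisons and are not given without it. Between the lines, some of the other genes that passed are given with a limma adjusted p and no values. SMAD4 and RB1, tumour suppressors that are deleted in this line, were listed there at 5.19 and 6.68 FPKM but no higher than 0.566 FPKM in the other 2 MDA-MB-468 libraries. EGFR, the epidermal growth factor receptor, whose gene MDA-MB-468 carries in extra copies, had 10.4 FPKM in that library against 70.7 and 153 FPKM in the other 2. The 9 luminal markers, 8 of which passed the filter, summed to 314 FPKM there and to between 3423 and 7164 FPKM in the other 5 libraries. KRT18, one of these markers and a sort antigen, had 67.7 FPKM there, lower than in any other library (158 to 216 FPKM in HCC70, 464 and 569 FPKM in MDA-MB-468). The other sort antigens were highest where the labels name them, VIM in the K18+Vim+ library of each line and KRT14 in the K18+K14+ library. Without VIM, the other 10 fibroblast and mesenchymal markers summed to 11.2 FPKM in the MDA-MB-468 library labelled K18+Vim+ and to between 8.26 and 12.3 FPKM in the other 5. Of these 10, COL1A1 reached 9.10 FPKM in HCC70 K18+Vim+ but 2.78 FPKM in the MDA-MB-468 library labelled K18+Vim+. CDH2 was at 6.43 FPKM in that MDA-MB-468 library and at or near the floor elsewhere, so like sums came from different genes. FAP reached 2.70 FPKM and PDGFRA 2.56 FPKM, and COL3A1 and THY1 did not exceed 0.177 FPKM. Of the 5 endothelial markers, PECAM1 and TEK were at the floor in all 6 libraries and the highest value was 0.713 FPKM (KDR). Of the 9 macrophage and neutrophil markers, ELANE was at the floor in all 6, PTPRC reached 1.41 FPKM and CD14 reached 138 FPKM.

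The collagenases MMP1 and MMP13 and the gelatinase MMP9 were at or near the floor, and the gelatinase MMP2 did not exceed 3.13 FPKM. MMP1 (Entrez Gene 4312), the interstitial collagenase, was listed at 0.1 FPKM in all 6 libraries. MMP9 (Entrez Gene 4318), gelatinase B, was at the floor except in the MDA-MB-468 library labelled K18+Vim+, where it had 0.11 FPKM. MMP13 (Entrez Gene 4322), collagenase 3, was at 0.218 and 0.2 FPKM in the K18+K14+ libraries of HCC70 and MDA-MB-468 and at the floor in the other 4. These 3 genes did not reach the mean of 1 FPKM needed for testing, so 7 of the 10 members were tested. MMP2 (Entrez Gene 4313), gelatinase A, was listed at 0.37 FPKM in HCC70 K18+, 1.21 FPKM in HCC70 K18+K14+ and 1.13 FPKM in HCC70 K18+Vim+. It was at the floor in MDA-MB-468 K18+ and K18+K14+ and reached 3.13 FPKM in the MDA-MB-468 library labelled K18+Vim+. MMP2 reached its mean of 1.01 FPKM through that library.

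MMP7 (Entrez Gene 4316) was the matrix metalloproteinase with the highest mean level. It stood at 26.9 FPKM in HCC70 K18+, 27.6 FPKM in HCC70 K18+K14+ and 3.53 FPKM in HCC70 K18+Vim+. The MDA-MB-468 levels were 51.2 FPKM in K18+, 96.1 FPKM in K18+K14+ and, in the library labelled K18+Vim+, 5.74 FPKM. Both K18+Vim+ libraries lay below all 4 others, and the share of all genes with this pattern was not counted. The other MMP genes beside it on chromosome 11 did not share its level. Of the 9 MMP genes in a row there, all measured, MMP7 was the only gene above 1 FPKM in any library, MMP3 and MMP20 reached 0.958 and 0.73 FPKM in MDA-MB-468 K18+ alone, and MMP1, MMP8, MMP10, MMP12 and MMP27 were at the floor in all 6.

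MMP14 (Entrez Gene 4323), the membrane-bound activator of MMP2, was at 14.7, 12.1 and 16.1 FPKM in HCC70 K18+, K18+K14+ and K18+Vim+. In MDA-MB-468 it was at 1.88, 0.497 and 1.78 FPKM in the same order. The lines did not overlap. MMP15 (Entrez Gene 4324), a second membrane-bound enzyme, was at 20.9, 33.5 and 22.0 FPKM in the HCC70 libraries, and MDA-MB-468 had 8.41, 16.0 and 1.85 FPKM. In both lines the K18+K14+ library had the highest MMP15 level, and again the lines did not overlap.

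TIMP1 (Entrez Gene 7076), which inhibits most secreted MMPs, was at 75.6, 92.1 and 85.3 FPKM in HCC70 K18+, K18+K14+ and K18+Vim+. In MDA-MB-468 it was at 57.5, 77.5 and 196 FPKM, the last in the library labelled K18+Vim+. The other 5 libraries lay within 57.5 to 92.1 FPKM, with the lines overlapping. TIMP2 (Entrez Gene 7077), which takes part in MMP2 activation on the cell surface as well as in inhibition, ranged from 6.17 to 8.40 FPKM in HCC70 and from 5.54 to 12.96 FPKM in MDA-MB-468, and the lines overlapped. TIMP3 (Entrez Gene 7078), the inhibitor that binds to the matrix, was at the floor in HCC70 K18+ and K18+K14+ and at 0.145 FPKM in HCC70 K18+Vim+. In MDA-MB-468 it was at 10.3, 7.21 and 4.05 FPKM in K18+, K18+K14+ and K18+Vim+. All 3 MDA-MB-468 libraries lay above all 3 of HCC70.

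TIMP1 and TIMP3 each overlap a synapsin gene on the opposite strand in GENCODE v29, and the sources used here do not say whether counting used strand. SYN1 was listed between 0.1 and 0.274 FPKM and SYN3 between 0.1 and 0.748 FPKM over the 6 libraries, both far below TIMP1 and, in MDA-MB-468, below TIMP3.

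**Figure D2:**
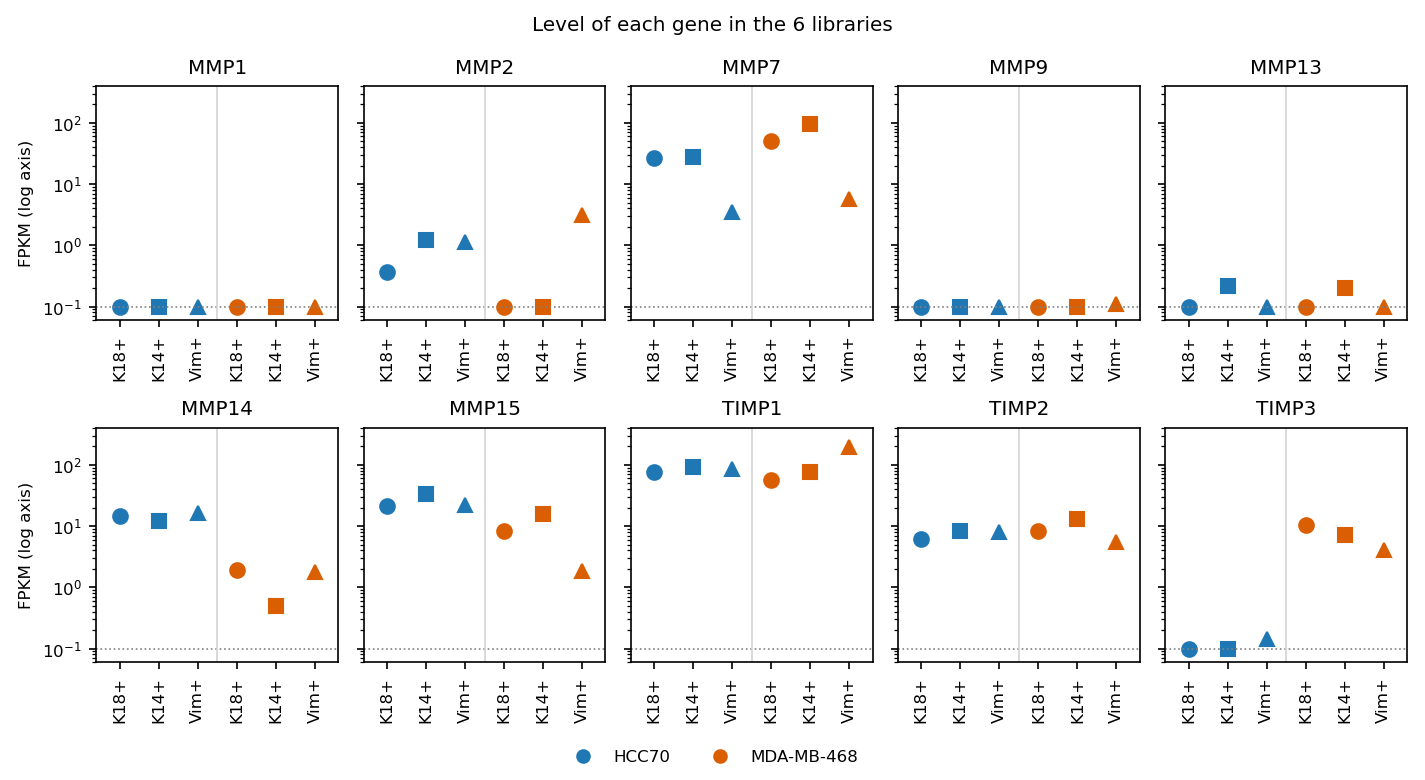
FPKM of each of the 10 genes on a log axis in the 6 libraries, HCC70 in blue and MDA-MB-468 in orange, with K14+ and Vim+ short for K18+K14+ and K18+Vim+, and each point 1 library. The dotted line is the floor of 0.1 FPKM. MMP7 is low in the Vim+ library of both lines, MMP14 and MMP15 are higher in HCC70, and TIMP3 is near the floor in HCC70 only.

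Which transcripts go with vimentin in cells sorted as positive for keratin 18 is addressed by setting K18+Vim+ against K18+, although KRT18 RNA itself had a log2 ratio of 0.45 (HCC70) and -2.76 (MDA-MB-468). Here MMP7 was the member with the largest difference in both lines. Its level was 7.62 times higher in K18+ than in K18+Vim+ in HCC70 and 8.93 times higher in the MDA-MB-468 libraries. On the log2(FPKM + 1) scale the ratios were -2.62 and -2.95. In HCC70 this was the seventh-lowest ratio of 12454 genes tested (rank 7), and in MDA-MB-468 rank 255. With limma, which fitted all 6 libraries with population and line as terms, the difference was -2.79 ± 0.44 (SE, n = 2 per population), with a 95% interval from -3.84 to -1.73. MMP7 ranked 4 among 12454 genes by unadjusted p (0.000521), and its limma adjusted p was 0.863, so it did not pass the threshold of 0.05. In these bulk libraries, fewer cells with MMP7 and less MMP7 RNA per cell cannot be told apart. The basal and myoepithelial markers also had their lowest sums in the K18+Vim+ libraries, at 168 against 280 and 454 FPKM (K18+, K18+K14+) in HCC70 and 53.1 against 538 and 1277 FPKM in the other line. These sums include the sort antigen KRT14. Of the 6 basal markers tested, 2 were lower than in K18+ in both lines, KRT5 and KRT14, and 0 were higher in both. KRT17 and MYLK were higher in HCC70 only (log2 ratios of 0.26 and 1.10). ACTA2 and CNN1 were higher in MDA-MB-468 only (0.096 and 0.30). The lower sums were thus not shared by all genes of the list. The 9 macrophage and neutrophil markers, 2 of which were tested, ranged from 61.8 to 145 FPKM in HCC70 and from 4.62 to 54.7 FPKM in MDA-MB-468, with the lowest sum again in K18+Vim+. CD14 carried that sum, and the other 8 summed to 8.78, 7.06 and 10.4 FPKM in HCC70 K18+, K18+K14+ and K18+Vim+, the last the highest, and to 5.62, 4.03 and 2.17 FPKM in MDA-MB-468. Of the 8 luminal markers tested, which include the sort antigen KRT18, 8 were at least 1 log2 unit lower in the MDA-MB-468 pair. In the HCC70 pair 0 were. Their median ratios were -3.26 (MDA-MB-468) and 0.36 (HCC70), where MMP7 had -2.95 and -2.62. MMP7 thus stood apart from the luminal markers in HCC70 only. The part of any of these lists in the MMP7 result was not tested.

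No gene of the table passed in this comparison (percent called 0 in each direction), and 532 of 12454 genes, 4.27%, had an unadjusted limma p under 0.05. MMP7 was the 1 of 7 tested members among them. By size alone, MMP7 was the 1 member at least 1 log2 unit lower in both lines, against 0.715% of all genes tested, and 0 members were at least 1 unit higher in both, against 0.377%. Without the MDA-MB-468 library labelled K18+Vim+, the MMP7 difference was -2.41 ± 0.48 (SE), ranked 15 by p, with a limma adjusted p of 0.573. Without the HCC70 K18+Vim+ library, where that labelled library alone stands for the population and is assumed to vary like the others, 3 of 7 members passed against 12% of all genes: MMP7 at -3.17 (limma adjusted p = 0.00383), MMP15 at -1.77 (0.031) and MMP2 at 2.08 (0.0133). MMP2 passed the filter only through that labelled library, its mean over the other 5 being 0.582 FPKM, so its call there could go 1 way only and the count of 3 supports nothing.

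The other members showed no like difference in HCC70. There the K18+Vim+ to K18+ ratios of MMP14, MMP15, TIMP1, TIMP2 and TIMP3 lay between 0.06 and 0.32 on the log2 scale, and that of MMP2 was 0.64 at a level near 1 FPKM. In MDA-MB-468 the ratios spread from -1.72 for MMP15 and -1.16 for TIMP3 to 1.75 for TIMP1 and 1.91 for MMP2. The fitted TIMP1 difference was 0.96 ± 0.52 (SE, limma adjusted p = 0.863) with all libraries and 0.21 ± 0.48 (SE) without the MDA-MB-468 library labelled K18+Vim+. The MMP15 difference was -0.83 ± 0.56 (SE, limma adjusted p = 0.863) and, without that library, 0.12 ± 0.44 (SE).

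**Figure D3:**
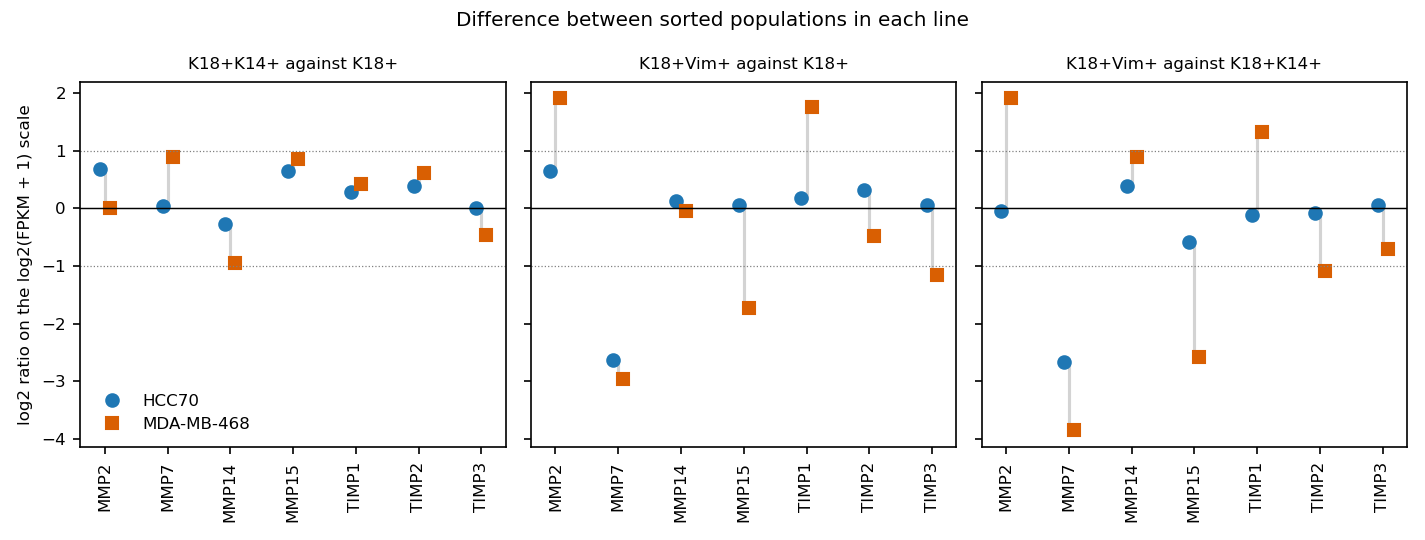
Log2 ratio on the log2(FPKM + 1) scale (y axis) of the 7 tested genes for the 3 pairs of populations, blue circles for HCC70 and orange squares for MDA-MB-468, each from 1 library against 1. Dotted lines mark 1 and -1. MMP7 lies below -2.6 in both lines in both K18+Vim+ comparisons, while MMP2, MMP15 and TIMP1 are spread mainly by MDA-MB-468.

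Between K18+Vim+ and K18+K14+ cells, the 2 populations that carry a marker besides keratin 18, MMP7 differed most again. The K18+K14+ level was 7.80 times higher in HCC70 and 16.8 times higher in MDA-MB-468. The limma difference was -3.25 ± 0.44 (SE, unadjusted p = 0.000214, rank 3 of 12454), with a limma adjusted p of 0.547. This comparison uses the same K18+Vim+ libraries as the one before. MMP15 was lower in the K18+Vim+ library of both lines, with 22.0 FPKM where K18+K14+ had 33.5 in HCC70, and 1.85 where it had 16.0 in MDA-MB-468, and a limma difference of -1.58 ± 0.56 (SE, unadjusted p = 0.028, adjusted p = 0.682). No gene passed (percent called 0), and 680 genes, 5.46%, had an unadjusted p under 0.05. MMP7 was the 1 member at least 1 log2 unit lower in both lines, against 0.915% of genes tested, and none was higher by that much, against 0.851%. Without the MDA-MB-468 library labelled K18+Vim+ the MMP7 difference was -2.87 ± 0.48 (SE, limma adjusted p = 0.183), and that of MMP15 -0.64 ± 0.44 (SE). Without HCC70 K18+Vim+ the same 3 members passed, against 16% of all genes: MMP7 at -3.63 (limma adjusted p = 0.00213), MMP15 at -2.53 (0.00574) and MMP2 at 1.74 (0.0253). The same limit of the filter holds for MMP2 here.

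What accompanies keratin 14 is addressed by setting K18+K14+ against K18+, where no member passed the test. MMP15 was 1.60 times higher in K18+K14+ in HCC70 and 1.90 times in MDA-MB-468, with a limma difference of 0.75 ± 0.56 (SE, adjusted p = 0.855). MMP7 was 1.02 times higher in HCC70 and 1.88 times higher in MDA-MB-468, with a limma difference of 0.46 ± 0.44 (SE, adjusted p = 0.857). TIMP1 and TIMP2 were 1.22 and 1.36 times higher in HCC70 and 1.35 and 1.59 times higher in MDA-MB-468. MMP14 was the tested member lower in both lines, 1.22 times in HCC70 and 3.79 times in MDA-MB-468, with a limma difference of -0.61 ± 0.39 (SE, adjusted p = 0.855).

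In K18+K14+ against K18+ cells 0 members had an unadjusted limma p under 0.05, against 3.44% of all genes, and no gene passed after adjustment. None of the 7 was at least 1 log2 unit higher (0.257% of genes tested) or lower (0.739%) in both lines. At any size, 4 of 7 lay higher in each line and 1 lower, against 20.2% and 43.7% of genes tested. Short transcripts tended to have higher K18+K14+ values, with a Spearman correlation between length and log2 ratio of -0.157 (HCC70) and -0.244 (MDA-MB-468) across 12409 genes, and genes are not independent replicates. The median coding-transcript length was 1125 bases for MMP7 and 626 bases for TIMP1, against 1762.5 bases over all genes tested, but 2299 bases for MMP15 and 3402 bases for TIMP2. The part of length in these ratios was not tested.

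Between the lines, 2 members passed the test, MMP14 as higher in HCC70 and TIMP3 as higher in MDA-MB-468. MMP14 averaged 14.3 ± 2.05 FPKM in HCC70 and 1.39 ± 0.77 FPKM in MDA-MB-468 (SD, n = 3 libraries per line, which are 3 different populations). Its limma difference, MDA-MB-468 minus HCC70, was -2.73 ± 0.32 (SE, adjusted p = 0.00912). TIMP3 averaged 0.115 ± 0.026 FPKM in HCC70 and 7.19 ± 3.13 FPKM in MDA-MB-468 (SD, n = 3 libraries per line), with a limma difference of 2.80 ± 0.38 (SE, adjusted p = 0.0141). TIMP3 passed the filter through the MDA-MB-468 libraries, so it could only differ in this direction. At an unadjusted limma p under 0.05 there were 4 of 7 members, against 33% of all genes. After adjustment these were 1 of 7 members higher and 1 of 7 lower in MDA-MB-468, against 4.54% and 7.68% of all genes.

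MMP15 averaged 25.5 ± 6.95 FPKM in HCC70 and 8.76 ± 7.09 FPKM in MDA-MB-468 (SD, n = 3 libraries per line), with a limma difference of -1.75 ± 0.46 (SE, adjusted p = 0.0554). MMP7 averaged 19.3 ± 13.7 and 51.0 ± 45.2 FPKM (SD), with overlapping libraries and a limma difference of 1.08 ± 0.36 (SE, adjusted p = 0.0935). TIMP1 and TIMP2 differed by 0.18 ± 0.43 and 0.16 ± 0.34 (SE, limma adjusted p = 0.786 and 0.771), with intervals at the 95% level from -0.84 to 1.21 and from -0.66 to 0.98. Without the MDA-MB-468 library labelled K18+Vim+, the TIMP1 difference changed sign to -0.32 ± 0.37 (SE) and that of TIMP2 was 0.46 ± 0.33 (SE). Without overlap between the 3 libraries of each line were MMP14 and MMP15 as lower, against 21% of genes tested, and TIMP3 as higher, against 20.1%. Leaving out the MDA-MB-468 library labelled K18+Vim+ added MMP2 as lower and MMP7 as higher, against 28% of genes tested in each direction. MMP2 passed the filter only through the library left out, and its remaining MDA-MB-468 values were at the floor of 0.1 FPKM.

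Without the MDA-MB-468 library labelled K18+Vim+, 4 of 7 members passed between the lines, against 26.9% of all genes. These were TIMP3 at 3.13 ± 0.32 (SE, limma adjusted p = 0.000372), MMP14 at -2.79 ± 0.35 (0.00104), MMP7 at 1.33 ± 0.36 (0.0283) and MMP15 at -1.12 ± 0.33 (0.0373). The MMP14 call ended without HCC70 K18+ (limma adjusted p = 0.0549), and the TIMP3 call without HCC70 K18+ (0.0842), MDA-MB-468 K18+ (0.0944) or MDA-MB-468 K18+K14+ (0.0559). Both ended when genes of low level were not filtered out (0.066 each).

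**Figure D4:**
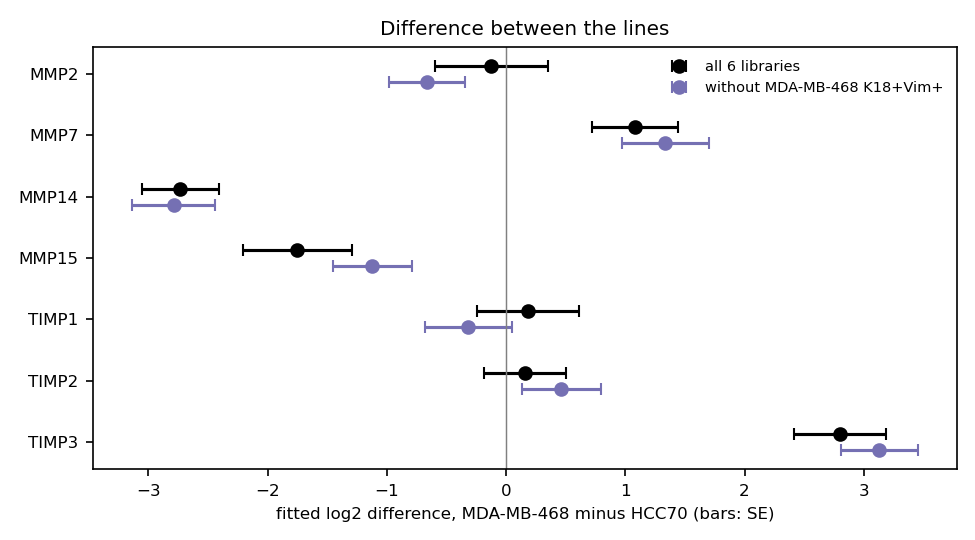
Fitted log2 difference between the lines (x axis, MDA-MB-468 minus HCC70, on the log2(FPKM + 1) scale) for the 7 tested genes, with SE bars, from all 6 libraries (black) and without the MDA-MB-468 library labelled K18+Vim+ (purple). MMP14 lies near -2.7 and TIMP3 near 2.8 or above in both fits, and MMP7 and MMP15 keep their sides.

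Other MMPs and TIMP4 were mostly at low levels. Of 17 genes, 6 passed the filter and 6 were at the floor in all libraries. In K18+Vim+ against K18+, 4 of these 6 lay higher in each line and 0 lower, against 16.5% and 33.9% of all genes tested. MMP17, a membrane-anchored enzyme, had 7.13 FPKM in K18+Vim+ and 3.86 in K18+ of HCC70, and 3.81 and 2.60 FPKM in MDA-MB-468. MMP24 was at 1.75 against 0.954 and 2.59 against 1.89 FPKM. MMP23B has a near-identical copy, so its values (0.817 against 0.612 and 6.10 against 2.497 FPKM) are uncertain. None of the 6 passed in any of the 4 comparisons with limma.

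The genes that activate MMPs or control them at the surface numbered 17, of which 15 were tested. In K18+Vim+ against K18+, 4 were higher and 6 lower in both lines, against 16.5% and 33.9% of all genes tested. The list's median ratio was -0.29 (HCC70) and -0.70 (MDA-MB-468), against -0.16 and -0.04 for all genes. PCSK5, a proprotein convertase, had 4.52 FPKM in K18+Vim+ and 1.545 in K18+ of HCC70, and 2.09 and 0.304 FPKM in MDA-MB-468. CLDN1, a tight junction protein, was at 14.5 against 25.7 and 1.55 against 20.0 FPKM. The integrin subunit ITGAV was at 9.13 against 15.4 and 5.38 against 16.8 FPKM. The limma adjusted p of each was 0.863.

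No gene of the ADAM, cathepsin or plasminogen lists passed in K18+Vim+ against K18+. Of 8 ADAM and ADAMTS genes tested out of 14, 4 lay lower in each line and 0 higher. ADAM10, the main sheddase of Notch and cadherins, had 7.70 FPKM in K18+Vim+ and 17.7 in K18+ of HCC70, and 5.82 and 14.4 FPKM in MDA-MB-468. ADAM9 had 2.65 and 6.045 FPKM in the HCC70 pair and 7.77 and 11.04 FPKM in the other. ADAM17, the sheddase of TNF, had 7.49 and 9.86 FPKM, then 7.54 and 16.4 FPKM. All 15 cathepsins and cystatins were tested, and 8 lay lower in each line, 0 higher. CTSH was at 58.1 against 93.8 FPKM and 23.5 against 73.4 FPKM, CTSS at 9.70 against 16.9 and 1.48 against 5.09 FPKM, and CTSB at 27.5 against 38.4 and 17.6 against 45.4 FPKM. Of all genes tested, 33.9% were lower and 16.5% higher in both lines. The cathepsin list also holds inhibitors, and the cystatin CSTB is among the 8. Some members lay far apart in the other direction in MDA-MB-468 alone, where CTSL had 31.6 against 5.87 FPKM, ADAMTS1 8.57 against 1.20 FPKM and the cystatin CST3 174 against 2.35 FPKM, each with the MDA-MB-468 library labelled K18+Vim+ as the higher.

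In plasminogen activation, which feeds into MMP activation, 10 of 13 genes were tested, and 4 lay lower in each line and 1 higher, against the same 33.9% and 16.5%. The higher gene was SERPINE2, an inhibitor of plasminogen activators, with 3.05 FPKM in K18+Vim+ and 1.36 in K18+ of HCC70, and 13.2 and 1.35 FPKM in MDA-MB-468. SERPINB2, another such inhibitor, was at 1.75 against 9.64 FPKM and 0.26 against 0.8 FPKM. PLAU, which encodes urokinase, was at 2.77 against 3.50 and 0.612 against 5.94 FPKM.

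Of 26 transcription factors known to act at MMP promoters, 23 were tested, of which 12 were lower in both lines in K18+Vim+ against K18+ and 1 was higher, against 33.9% and 16.5% of all genes. The AP-1 subunit genes lay on both sides. FOS had 76.6 FPKM in K18+Vim+ and 149.7 in K18+ of HCC70, and 2.54 and 11.1 FPKM in MDA-MB-468. JUN, the higher gene, had 34.9 and 23.7 FPKM in the HCC70 pair and 75.9 and 20.6 FPKM in the other. STAT3 was at 8.93 against 13.9 and 10.3 against 28.7 FPKM. In MDA-MB-468, 4 of the 23 were at least 1 log2 unit higher and 8 lower, against 1448 and 2107 of 12454 genes. Besides JUN, the 4 were LEF1 (9.11 against 0.131 FPKM), TWIST1 (8.99 against 0.509 FPKM) and SNAI2 (3.04 against 0.1 FPKM). Each was higher in the library labelled K18+Vim+. In HCC70, SNAI2 was lower (2.49 against 13.5 FPKM), TWIST1 was at the floor and LEF1 at or near it. No gene of these lists passed (limma adjusted p of 0.863 for FOS, JUN and STAT3).

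**Figure D5:**
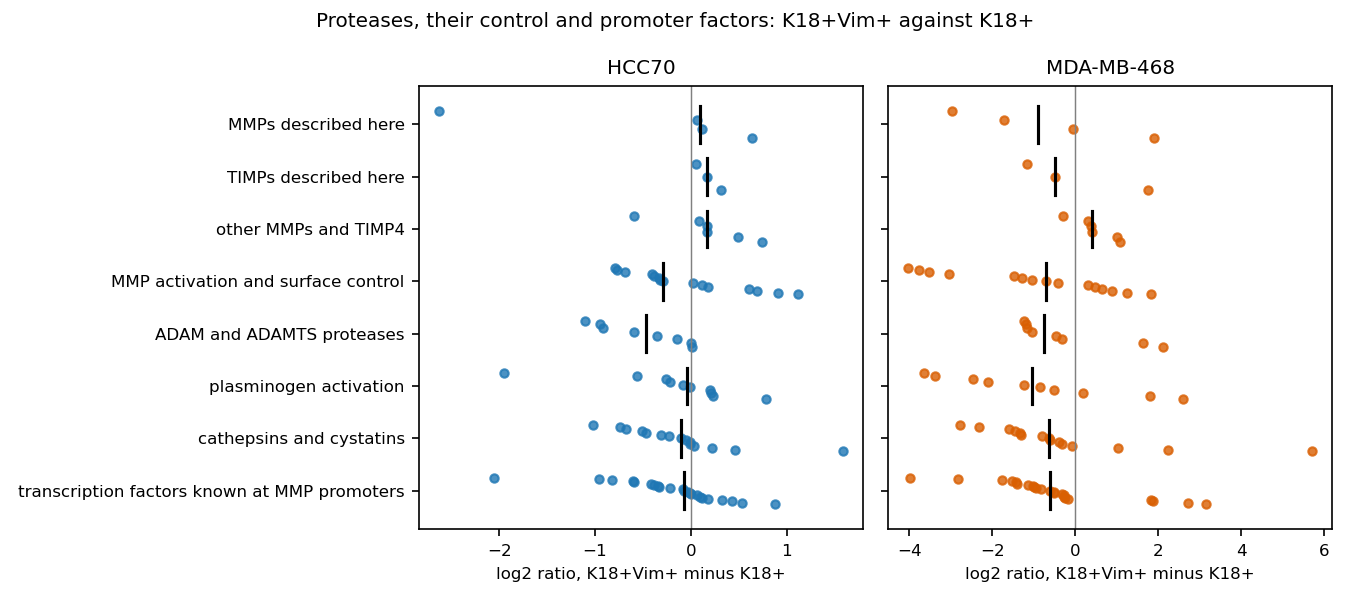
Log2 ratio of K18+Vim+ to K18+ (x axes, which differ in range) for each tested gene of 8 lists, HCC70 on the left and MDA-MB-468 on the right, with a black bar at the list median and 1 library against 1. The lowest point of the MMPs described here is MMP7 in both lines, at -2.62 and -2.95.

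In K18+K14+ against K18+ no gene of the same lists passed. Higher and lower in both lines were 4 and 14 of 23 transcription factors, 1 and 8 of 15 cathepsins and cystatins and 1 and 5 of 8 ADAM and ADAMTS genes. The counts were 4 and 4 of 15 activation genes, 4 and 2 of 10 plasminogen genes and 2 and 1 of 6 other MMPs, against 20.2% and 43.7% of all genes tested. ITGB1, the beta-1 integrin subunit, had 49.9 FPKM in K18+K14+ and 119.9 in K18+ of HCC70, and 13.5 and 33.3 FPKM in MDA-MB-468. LCN2, a lipocalin that binds MMP9, was at 1138 against 708 FPKM and 330.3 against 196 FPKM. ADAM10 was at 7.41 against 17.7 and 5.04 against 14.4 FPKM, and ADAM9 at 3.04 against 6.04 and 4.24 against 11.04 FPKM. CTSK, a collagen-degrading cathepsin, was at 3.40 against 6.18 and 2.56 against 5.81 FPKM. TCF7L2, a transcription factor of Wnt signalling, was at 7.13 against 10.0 and 3.82 against 8.05 FPKM. The limma adjusted p of these 6 genes lay at 0.855 to 0.89.

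Between the lines 13 of the 77 genes tested in these lists passed, 3 higher (3.9%) and 10 lower (13%) in MDA-MB-468, against 4.54% and 7.68% of all genes. For 8 of the 13 the mean in the lower line was under the filter of 1 FPKM, so they passed the filter through the other line and their direction was largely fixed by it. These were A2M, RECK and CTSF as higher, and ADAMTS10, CSTA, LRP1, SERPINB2 and RUNX2 as lower. The 3 higher genes include both broad MMP inhibitors outside the TIMP family that were listed. RECK, a membrane-anchored inhibitor, was at 5.29, 9.12 and 3.71 FPKM in MDA-MB-468 K18+, K18+K14+ and K18+Vim+ and at 0.435, 0.229 and 1.19 FPKM in HCC70 (limma difference 2.09 ± 0.45 SE, adjusted p = 0.0349). A2M, the plasma protease trap, was at 46.3, 94.2 and 3.10 FPKM in MDA-MB-468 and at 0.11, 0.1 and 1.08 FPKM in HCC70 (limma difference 4.28 ± 0.98 SE, adjusted p = 0.0406). CTSF, a cathepsin, was the third, with a limma adjusted p of 0.0195.

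Lower in MDA-MB-468 were ADAMTS10, at 89.1, 88.0 and 46.8 FPKM in HCC70 against 0.107, 0.1 and 2.45 FPKM (limma adjusted p = 0.00588), and the cystatin CSTA, at 103, 131 and 49.97 FPKM against 0.1, 0.1 and 1.24 FPKM (0.00436). The 3 FOS levels were 149.7, 93.5 and 76.6 FPKM in HCC70, where MDA-MB-468 had 11.1, 8.26 and 2.54 FPKM (0.00473). The other lower genes were LCN2, ITGB1, LRP1 (an endocytic receptor that clears MMPs), ADAM15, SERPINB2, CTSS and RUNX2, with limma adjusted p from 0.0197 to 0.0468. Without the MDA-MB-468 library labelled K18+Vim+, 12 of the 13 passed in the same direction, and ADAM15 did not (-1.38, limma adjusted p = 0.0612). The 13 were picked by the fit to all libraries, which holds every library of this fit, so their passing again was largely fixed. The 26.9% of all genes that passed here is no measure for that count, which supports nothing.

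The genes whose pattern over the 6 libraries was most like that of MMP7 were TMEM127 (Pearson r = 0.985 of log2 values), ALCAM (0.980) and VPS35 (0.977). ALCAM, an adhesion molecule, was at 30.2, 22.9 and 8.23 FPKM in HCC70 and 43.5, 48.4 and 12.8 FPKM in MDA-MB-468 K18+, K18+K14+ and K18+Vim+. For TIMP1 they were PRDX4 (0.995), THOC6 (0.987) and HOXA3 (0.987), and PRDX4 was at 117, 133 and 126 FPKM in HCC70 and 80.2, 114 and 268 FPKM in MDA-MB-468. These are the highest correlations among all genes tested, over 6 points that share lines and libraries, and they are given as a description with no test. TIMP1, PRDX4, THOC6 and HOXA3 were each highest in the MDA-MB-468 library labelled K18+Vim+, and no correlation is given over the 5 libraries without it.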

How the data were processed

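RNA from cells fixed in methanol and sorted was recovered with a kit for fixed tissue and sequenced, per the labels' protocols. TopHat2 and the GRCh37 build are named in the submitters' processing notes. The counting tool, annotation and strand setting were not given in the sources used here. Depth is unknown, so values carry no counting interval. The authors deposited 1 table of FPKM per Entrez Gene ID (18807 rows, values from 0.1 to 10000).

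Rows with a blank value (7) and the lower row of each ID listed again (5) were left out. Of the 18795 IDs kept, 18732 matched a RefSeq symbol. The 12454 genes whose mean over all libraries reached 1 FPKM were fitted as log2(FPKM + 1) with limma 3.58.1 in R 4.3.3 (lmFit, eBayes with trend, population and cell line as terms, all 6 libraries, 2 residual degrees of freedom). This scale understates differences of low genes. P-values were adjusted by Benjamini-Hochberg over all genes tested at 0.05. Cell line pairs the populations: by the labels, each population was taken once from either line. The script was tested on simulated data. Transcript lengths came from GENCODE v29. Promoters came from RefSeq, and 5 members had no entry. Other software was Python 3.11.15, pandas 2.3.3, numpy 2.4.6 and, for figures, matplotlib 3.10.9.

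The members, lists and tests were chosen with earlier results of these data known. Named by rule were the 10 members. Of each other list these were the genes past the threshold or, where no gene passed, up to 3 genes with the largest difference shared by both lines. Also by rule were the 3 genes most correlated with the highest MMP and TIMP, the sort antigens and the genes lost or amplified in MDA-MB-468. Genes named outside it, after their values were seen, include MMP3, MMP20, SYN1, SYN3, CTSL, ADAMTS1, CST3, CSTB, LEF1, TWIST1, SNAI2 and single cell type markers. Alternatives were pseudocounts of 0.1 and 5, no filter and a mean of 5 FPKM, quantile normalization, no trend, no block, only the 4 libraries compared and leaving out each library. After the data were seen, a fit of the lines without both K18+Vim+ libraries was added.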

Additional observations from a re-analysis of the deposited data

Results flagged for a closer look

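For 6 of the 7 tested members, at least 1 of the 2 K18+Vim+ comparisons pointed in opposite directions in the 2 lines. Against K18+, 2 of 7 were higher and 1 lower in both lines, where all genes tested had 16.5% and 33.9%. Against K18+K14+, 1 of 7 was higher and 3 lower in both, where all genes had 25.6% and 23.7%. Many other genes thus also lacked a shared direction, and the count of 6 is no trait of these members. Each direction is 1 library against 1, the difference between the lines was not tested, and every MDA-MB-468 value uses the library labelled K18+Vim+. Against K18+, the MDA-MB-468 log2 ratio minus the HCC70 log2 ratio was -1.79 for MMP15 (-1.72 against 0.07), -1.22 for TIMP3 (-1.16 against 0.06), -0.80 for TIMP2 (-0.49 against 0.32) and -0.17 for MMP14 (-0.05 against 0.12). Against K18+K14+, it was 1.96 for MMP2 (1.91 against -0.05), 1.44 for TIMP1 (1.33 against -0.11) and -0.76 for TIMP3 (-0.70 against 0.06). TIMP3 lay at or near the floor in HCC70, and MMP2 at it in 2 MDA-MB-468 libraries.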

How the results depend on the processing

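Of the differences fitted for the members under the alternatives, 345 kept their direction and side of the threshold, 20 changed direction, 13 passed newly and 6 no longer passed. Where a library was left out, a population or line with fewer libraries was assumed to vary like the rest, and the cause of each move was not tested. With quantile normalization, which moved the median of all genes by 0.17 (K18+K14+ against K18+) and 0.14 (K18+Vim+ against K18+), TIMP2 in K18+Vim+ against K18+ was 0.081. With a pseudocount of 5, MMP2 between the lines was 0.016. With a pseudocount of 0.1, 2 members in place of 1 differed by at least 1 log2 unit in K18+Vim+ against K18+ in both lines. MMP7 was lower in both and MMP2 higher in both, and the share of all genes at that pseudocount is not given here. MMP2 was at the floor in MDA-MB-468 K18+ and passed the filter only through the MDA-MB-468 library labelled K18+Vim+. Its direction in that line was thus fixed, and the count of 2 supports nothing. Without the block for cell line (no replicate block), 0 genes passed in each population comparison, so no call changed. Between the lines 1522 genes passed, 15 without a filter and 3366 without both K18+Vim+ libraries, where TIMP1 was -0.32.

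Leaving out each library in turn gave 0 to 1 genes in K18+K14+ against K18+ and 0 to 1500 in K18+Vim+ against K18+. It gave 0 to 1988 in K18+Vim+ against K18+K14+ and 206 (without HCC70 K18+) to 3360 (without HCC70 K18+Vim+) between the lines. In K18+K14+ against K18+, the difference ranged from -0.32 to 1.01 for MMP2, -0.051 to 0.98 for MMP7, -0.078 to 0.78 for TIMP1 and -0.65 to 0.19 for TIMP3. In K18+Vim+ against K18+ it ranged from -0.18 to 0.25 for MMP14, -1.77 to 0.12 for MMP15 and -0.54 to 0.37 for TIMP2. In K18+Vim+ against K18+K14+ it ranged from -0.15 to 1.36 for TIMP1 and -0.82 to 0.17 for TIMP3. Between the lines it ranged from -0.66 to 0.32 for MMP2, -0.32 to 0.47 for TIMP1 and -0.047 to 0.46 for TIMP2.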
